A study of Homo sapiens with 32 samples.

Results

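The comparison described here is that of Das added to Sal for 72 h in MDA-MB-468, a long-established line of human triple-negative breast cancer cells. Its 8 libraries, of 32 in the series, were chosen by their labels: 4 of cells given 0.5 µM Sal alone and 4 of cells given Sal and Das together (S + D). The label of S + D gives 15.5 µM in all, that is 0.5 µM Sal with 15 µM Das. Every cell in this comparison thus received Sal, and the groups differ in Das. The other groups used beside it are the PBS control and 15 µM Das alone at 72 h, which share no library with it, and Sal and S + D at 24 h. Each group had 4 libraries of RNA from flask cultures of 1 cell line, so the values speak for that line alone. The 8 libraries held between 29143860 and 40234975 counts.

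Salinomycin (Sal) is a polyether ionophore that carries monovalent cations across membranes and is known for its toxicity to cancer cells with stem cell features. Dasatinib (Das) is an ATP-competitive inhibitor of the SRC and ABL family kinases and of several other tyrosine kinases. SRC kinases stand below integrins and growth factor receptors, EGFR among them, and pass their signal to the RAS, RAF and ERK cascade, to the actin cytoskeleton and to YAP. ERK activity is read out by immediate early transcription factors such as FOS and EGR1, by the ETS factors ETV1, ETV4 and ETV5 and by the feedback inhibitors of the sprouty and dual-specificity phosphatase families. The study asked what the combination does to these cells beyond each drug. This comparison gives the part of it that Das brings when both drugs are given together.

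The promoters of 3 genes are printed because these genes lead the groups described below. Matches to short motifs are marked in them, and whether a regulator reads these letters was not tested. They are RefSeq sequences of GRCh38.p14, each from 250 bases before to 50 bases after the start site, 5′ to 3′ on the strand of the gene. EGR1 is shown with its CArG boxes, the elements that SRF binds, in capitals (plus strand, chr5:138465229-138465528). CCN2 is shown with the TEAD core GGAATG in capitals (minus strand, chr6:131951323-131951622). CYP1A1 is shown with GCGTG in capitals (minus strand, chr15:74725479-74725778). These letters are only the core of the element that the aryl hydrocarbon receptor binds, and the match was not checked for the rest of that element.
EGR1: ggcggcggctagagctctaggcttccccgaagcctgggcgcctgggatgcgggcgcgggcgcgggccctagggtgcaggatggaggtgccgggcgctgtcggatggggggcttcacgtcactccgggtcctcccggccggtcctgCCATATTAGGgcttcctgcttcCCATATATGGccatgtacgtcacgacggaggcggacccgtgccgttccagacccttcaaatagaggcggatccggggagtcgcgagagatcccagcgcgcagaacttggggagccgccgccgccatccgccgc
CCN2: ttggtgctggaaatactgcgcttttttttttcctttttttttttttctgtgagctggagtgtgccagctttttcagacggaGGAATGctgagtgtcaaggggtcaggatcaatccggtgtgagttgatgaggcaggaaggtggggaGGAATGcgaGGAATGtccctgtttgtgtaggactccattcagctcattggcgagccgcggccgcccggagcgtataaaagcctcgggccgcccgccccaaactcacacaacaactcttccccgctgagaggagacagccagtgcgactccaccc
CYP1A1: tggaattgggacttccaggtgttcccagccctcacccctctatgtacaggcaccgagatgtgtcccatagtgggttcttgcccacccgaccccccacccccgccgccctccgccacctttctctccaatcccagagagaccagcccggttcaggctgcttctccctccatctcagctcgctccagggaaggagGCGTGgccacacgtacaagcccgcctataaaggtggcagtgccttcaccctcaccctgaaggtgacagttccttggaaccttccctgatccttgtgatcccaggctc
Searched on both strands, a CArG box was in 1.29% of the 35116 promoters of this length, GGAATG in 14% and GCGTG in 36.5%. The promoter of EGR1 held 2 CArG boxes, that of CCN2 held GGAATG in 3 places and that of CYP1A1 held GCGTG in 1. Of the promoters at hand for the lists used below, a CArG box was in 6 of 17 for the actin and SRF genes and 2 of 18 for the immediate early factors, and GGAATG was in 5 of 13 for the YAP and TEAD genes. A match of letters is a description of the sequence, not a binding site.

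Levels are CPM, that is counts relative to the library total after scaling by edgeR's TMM method, and 4 values in a row are those of the unnumbered library and of libraries 1, 2 and 3. Before the results, the libraries have to be described. The unnumbered S + D and Sal libraries deviated together from their groups, with a correlation across genes of 0.62, and for libraries 1 to 3 the same correlation was between -0.04 and 0.27. In S + D and in Sal, libraries 2 and 3 were much closer to each other than the rest. Their counts differed by 2.43 times the variance of counting noise with S + D and 2.8 times with Sal, whereas the other pairs of a group lay between 21.9 and 101 times. No pair was within counting noise, so all 4 libraries were kept, and the p-values measure the spread between these libraries, which may in part be technical. Counts are therefore also given from the numbered libraries only and with libraries 2 and 3 of S + D and of Sal summed to 1 sample. Libraries of control and of Das were not summed. There, libraries 1 and 2 were the closest pair at 72 h, at 4.06 times with control and 4.69 times with Das. The defining markers of the line were in place: EGFR lay between 2768 and 4719 CPM in the 8 libraries, ERBB2 between 56.0 and 77, and PGR had at most 3 counts. ESR1 was low, between 4.87 and 9.54 CPM. Of the leukocyte markers PTPRC and CD3E had at most 2 counts, but CD14 had 5.87 to 17.6 CPM with Sal and 3.72 to 5.57 CPM with S + D. Of the fibroblast markers COL1A2 was at 0, while COL1A1 had 54.7 to 75.9 CPM with Sal and 66.8 to 119 CPM with S + D. The part of CD14 and COL1A1 in the results was not tested. The summed level of 9 epithelial markers was lower with S + D (5764 to 7062 CPM) than with Sal (7245 to 8107 CPM), most of it that of EGFR, and the part of this shift in the results was not tested.

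Adding Das to Sal raised 69 genes and lowered 89 past both cutoffs of the study, that is an adjusted p below 0.01 with a log2 fold change beyond 1.5 in either direction, among 16682 genes tested. Among genes where either group averaged 1 CPM or more and the groups did not overlap, the largest falls were those of EGR1, ETV1, FOS, S100A7A and ETV5, and the largest rises those of MAPK4, ASIC4, SMOC1 and L1CAM. The lack of overlap was a condition for choosing the largest rises and falls. Where it is mentioned below for such a gene, it is not a separate result. The 69 genes are 0.414% and the 89 genes 0.534% of those tested (quasi-likelihood test of edgeR, Benjamini-Hochberg adjustment). At the adjusted p alone, 237 genes (1.42%) were higher and 265 (1.59%) lower, while the median log2 fold change of all genes was -0.03. The numbered libraries gave 102 higher and 78 lower past both cutoffs, of which 59 and 68 were genes of the main counts. With libraries 2 and 3 summed, 28 genes were higher and 54 lower, and 28 and 52 of them were in the main counts. Leaving out 1 library at a time gave between 44 (without Sal replicate 2) and 99 (without the unnumbered Sal library) higher and between 63 and 80 lower, and at the adjusted p alone between 113 (without Sal replicate 3) and 282 higher and between 147 (without SD replicate 3) and 260 lower. Of the 158 genes, 123 were protein-coding and 36 had a mean under 1 CPM in both groups. The plot of fold change against level shows that genes past both cutoffs are found at low and high levels, and that EGR1 stands below all other genes called.

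**Figure D1:**
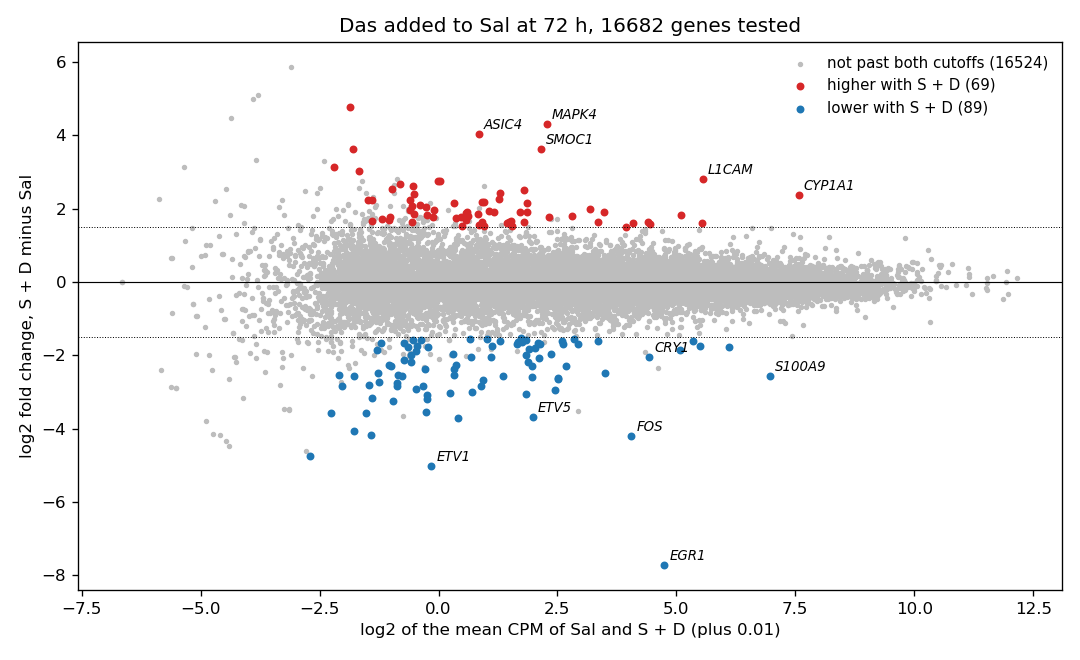
Log2 fold change of S + D minus Sal at 72 h against the log2 mean CPM of both groups (plus 0.01), 1 point per gene; red and blue points are the 69 higher and 89 lower genes past both cutoffs, and dotted lines mark a log2 fold change of 1.5 in either direction. EGR1 lies lowest at -7.72, and MAPK4, ASIC4 and SMOC1 lie between 3.62 and 4.32.

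ERK feedback and target genes had a larger share of falls than any of the other lists tested. The lists and their members were chosen with earlier results of these data known. The counts of lists, here and below, thus describe the genes listed and are no independent test. Of 20 such genes, all tested, 10 fell and 0 rose at an adjusted p under 0.01, against 1.59% and 1.42% of all genes, and their median log2 fold change was -0.83. By the same test, 16 of the 20 had an unadjusted p under 0.05 and a lower estimate, and DESeq2 called 13 lower and 0 higher. The count was 11 from the numbered libraries and 7 with libraries 2 and 3 summed. The 10 were ETV5, ETV1, SPRY2, CCND1, DUSP6, SPRY4, SPRY1, SPRED2, PHLDA1 and ETV4.

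ETV5 (chromosome 3, 185764103 to 185828107 of GRCh37, minus strand), an ETS factor of the PEA3 family, had 7.82, 7.09, 7.76 and 6.5 CPM with Sal and 0.529, 0.691, 0.465 and 0.589 CPM with S + D. The groups lay far apart and neither held a deviating library. Its log2 fold change was -3.68 ± 0.26 (SE, adjusted p = 1.57e-07). ETV1, of the same family, had 1.10, 1.83, 1.74 and 2.27 CPM with Sal, and 0 counts in 2 of the S + D libraries, with 0.0774 and 0.118 CPM in the others. Its fitted log2 fold change, -5.01 ± 0.53 (SE, adjusted p = 2.03e-05), rests on these few counts. ETV4, the last of the 3, fell from 6.75 ± 1.45 to 2.46 ± 0.397 CPM (SD, n = 4), a change of -1.45 on the log2 scale.

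The feedback inhibitors moved the same way. DUSP6, the phosphatase that removes the activating phosphates of ERK, had 1.35, 1.56, 1.67 and 1.40 CPM with Sal and 0.111, 0.314, 0.181 and 0.0884 CPM with S + D, a log2 fold change of -3.09 ± 0.41 (SE, adjusted p = 0.000177). Of the exon bases of DUSP6, 28.6% lie under another gene in the annotation, so that its counts are less certain. SPRY2, a sprouty inhibitor of receptor tyrosine kinase signalling, had 15.5, 18.6, 21.8 and 19.4 CPM with Sal and 6.79, 9.61, 8.80 and 9.10 CPM with S + D, a log2 fold change of -1.13 ± 0.14 (SE, adjusted p = 6.91e-05). SPRY4 fell from 5.78 ± 0.820 to 1.62 ± 0.645 CPM (SD, n = 4). CCND1 encodes cyclin D1, the cyclin that links growth factor signals to the G1 phase (chromosome 11, 69455924 to 69469242 of GRCh37, plus strand). It had 52.5, 49.4, 46.5 and 45.4 CPM with Sal and 16.5, 15.1, 19 and 20.1 CPM with S + D, a log2 fold change of -1.45 ± 0.18 (SE, adjusted p = 6.91e-05). Each of ETV5, ETV1, DUSP6, SPRY2 and CCND1 was called in all 9 alternatives and in all 8 fits that left out 1 library.

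Among 18 immediate early factors tested, 3 fell (EGR1, FOS and JUNB) and 2 rose (BTG2 and SRF), with a median log2 fold change of -0.23. EGR1, a zinc finger factor (chromosome 5, 137801168 to 137804992 of GRCh37, plus strand), had 18.1, 72.4, 65.0 and 57.9 CPM with Sal and 0.334, 0.126, 0.258 and 0.265 CPM with S + D. The unnumbered Sal library was the lowest of its group and still lay far above every S + D library. The log2 fold change of -7.72 ± 0.82 (SE, adjusted p = 2.24e-05) was the largest of any gene called. FOS, the AP-1 subunit (chromosome 14, 75745529 to 75748933 of GRCh37, plus strand), had 16.5, 36.8, 36.5 and 36.4 CPM with Sal and 2.17, 1.35, 1.57 and 1.74 CPM with S + D. Here too the unnumbered Sal library was low, and the groups did not overlap. Its log2 fold change was -4.20 ± 0.31 (SE, adjusted p = 3.23e-07), and the numbered libraries alone gave -4.55. JUNB, another AP-1 subunit, fell from 213 ± 34.0 to 99.0 ± 14.1 CPM (SD, n = 4), a change of -1.11 on the log2 scale.
SRF, the factor that binds CArG boxes and so stands upstream of FOS and EGR1, rose by a log2 fold change of 0.55 (adjusted p = 0.00856), and BTG2, an antiproliferative gene, by 0.90 (adjusted p = 0.00409). Neither kept its call in most fits that left out 1 library: SRF was called in 2 of 8, at worst 0.0362 without Sal replicate 2, and BTG2 in 1 of 8, at worst 0.0194 without the same library. With libraries 2 and 3 summed, 3 of these factors were lower and 0 higher by the same edgeR test, whereas DESeq2 called 3 lower and 3 higher.

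**Figure D2:**
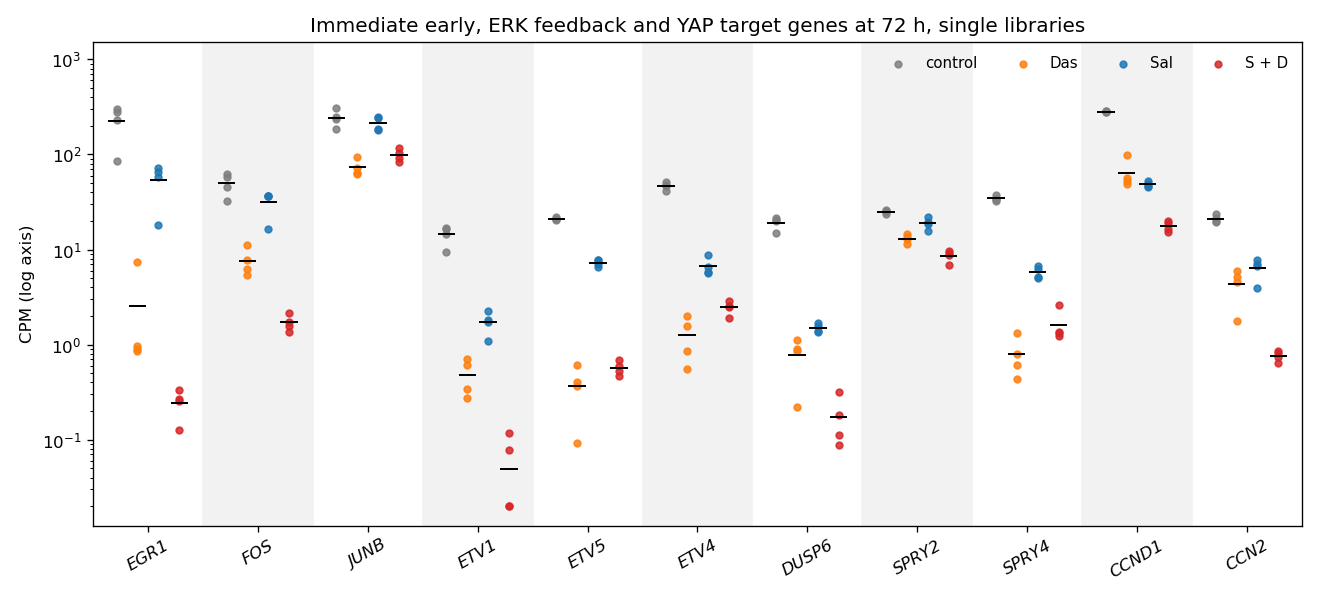
CPM on a log axis of 11 genes in the single libraries of control, Das, Sal and S + D at 72 h (4 points each), with a black bar at the mean; values of 0 are drawn at 0.02, which applies to 2 S + D libraries of ETV1. In each of these genes the S + D points lie below the Sal points, and in EGR1 the gap is from 18.1 to 0.334 CPM at its narrowest.

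The list of YAP and TEAD targets, genes that report on the Hippo pathway, also holds the factor TEAD4 itself. With TEAD4 included it gave 4 falls and 0 rises among 19 tested, against 1.59% and 1.42% of all genes. Its median log2 fold change was -0.27. CCN2 encodes a matricellular protein and is a standard YAP target, with the 3 GGAATG matches printed above. It had 3.97, 7.09, 7.83 and 6.64 CPM with Sal and 0.640, 0.816, 0.852 and 0.736 CPM with S + D, so that no library of one group reached the other. Its log2 fold change was -3.06 ± 0.31 (SE, adjusted p = 1.65e-05). TEAD4, the DNA-binding partner of YAP, fell from 8.35 ± 1.71 to 3.54 ± 0.532 CPM (SD, n = 4), and CRIM1 from 126 ± 6.56 to 72.4 ± 13.0 CPM (SD, n = 4). AMOTL2, which binds YAP and holds it in the cytoplasm, changed by a log2 value of -0.61 (adjusted p = 0.00625) and kept the call in 1 of the 8 fits that left out 1 library (0.0256 without Sal replicate 1). CCN2 was the 1 gene of this list still called with libraries 2 and 3 summed.

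Few of the kinases that Das binds passed the test at the level of RNA. Of 15 tested genes of the SRC and ABL families and other kinases bound by Das, 1 rose and 0 fell, while 5 had a lower and 2 a higher estimate at an unadjusted p under 0.05, and the estimates ran from -0.95 to 1.63 with a median of -0.02. The gene that rose was FYN, an SRC family kinase, with 16.5, 11.7, 14.9 and 13.4 CPM with Sal and 37.7, 38.6, 37.6 and 35.7 CPM with S + D. The S + D libraries lay within 3 CPM of each other and well above all Sal libraries, a log2 fold change of 1.40 ± 0.14 (SE, adjusted p = 1.65e-05). SRC had an estimate of 0.18 (adjusted p = 0.543) and LYN one of 0.18 (adjusted p = 0.45). None of the 3 EGFR family receptors tested was called by edgeR or DESeq2, although 1 had an unadjusted p under 0.05, and EGFR had an estimate of -0.32 (adjusted p = 0.218). Of 7 ligands of these receptors, HBEGF was called higher, by 0.66 (adjusted p = 0.00689), and in 1 of the 8 fits that left out 1 library (0.0286 without Sal replicate 2).

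The largest rises were in genes of varied function. MAPK4, an atypical MAP kinase (chromosome 18, 48086457 to 48258196 of GRCh37, plus strand), had 0.325, 0.726, 0.491 and 0.314 CPM with Sal and 6.65, 8.95, 10.3 and 10.9 CPM with S + D. The lowest S + D library was above the highest Sal library by several times, and the log2 fold change was 4.32 ± 0.30 (SE, adjusted p = 1.57e-07). The level in the PBS control was between them, at 4.32 ± 1.41 CPM (SD, n = 4), and that with Das alone above both, at 61.1 ± 6.40 CPM (SD, n = 4). SMOC1, a secreted calcium-binding matricellular protein (chromosome 14, 70320848 to 70499083 of GRCh37, plus strand), had 0.925, 0.415, 0.590 and 0.699 CPM with Sal and 9.38, 8.35, 7.36 and 7.89 CPM with S + D, a log2 fold change of 3.62 ± 0.25 (SE, adjusted p = 1.57e-07). Both groups were tight and far apart. ASIC4, of the acid-sensing ion channel family, had 0.200, 0.277, 0.197 and 0.140 CPM with Sal and 4.76, 2.17, 3.64 and 3.00 CPM with S + D, a log2 fold change of 4.04 ± 0.55 (SE, adjusted p = 0.000216).
L1CAM is a neural cell adhesion molecule of the immunoglobulin superfamily (chromosome X, 153126969 to 153151627 of GRCh37, minus strand). It had 18.2, 10.2, 8.38 and 9.99 CPM with Sal and 79.7, 75.2, 86.1 and 86.5 CPM with S + D, a log2 fold change of 2.80 ± 0.41 (SE, adjusted p = 0.000536). Control (3.98 ± 1.93 CPM, SD, n = 4) and Das alone (6.43 ± 3.55 CPM) were both below the Sal group, so S + D had the highest level of the 4 groups. CA12, a membrane-bound carbonic anhydrase, rose from 0.761 ± 0.0836 to 4.09 ± 0.575 CPM (SD, n = 4), where the control was at 2.86 ± 1.22 CPM. The other large rises were those of PAPPA, a metalloprotease that cleaves IGF-binding proteins (log2 fold change 2.75), PSG8 (2.75), the glycosyltransferase gene MGAT5B (2.61), DDIT4L, an inhibitor of mTOR signalling (2.5), and the tubulin gene TUBB4A (2.40). DDIT4L and TUBB4A were called in 1 and 2 of the 8 fits that left out 1 library (largest adjusted p 0.031 and 0.0213), each without Sal replicate 2. PSG8 belongs to a family of near-identical genes, and 21.1% of the exon bases of PAPPA, 17.1% of those of TUBB4A and 11% of those of L1CAM lie under another gene, so that their counts are less certain.

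**Figure D3:**
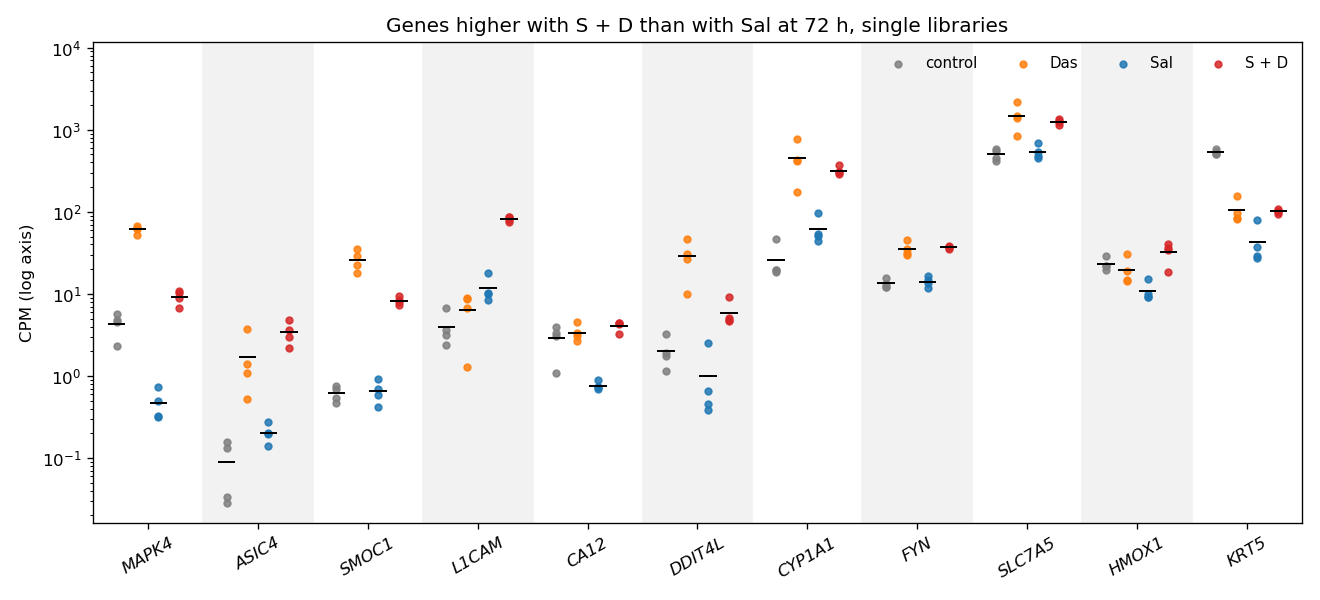
CPM on a log axis of 11 genes that were higher with S + D than with Sal, in the single libraries of control, Das, Sal and S + D at 72 h (4 points each), with a black bar at the mean. L1CAM is highest with S + D (75.2 to 86.5 CPM), MAPK4 and SMOC1 are highest with Das alone, and KRT5 is highest in the control.

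The aryl hydrocarbon receptor is a ligand-activated factor that raises CYP1A1, the cytochrome P450 gene by which its activity is usually read. CYP1A1 (chromosome 15, 75011883 to 75017877 of GRCh37, minus strand) had 95.9, 54.1, 50.6 and 44.2 CPM with Sal and 368, 290, 304 and 309 CPM with S + D. The unnumbered library was the highest of each group, without any overlap between groups. The log2 fold change was 2.38 ± 0.38 (SE, adjusted p = 0.000931), or 2.31 (adjusted p = 0.0109) with libraries 2 and 3 summed, where the adjusted p over its 9 alternatives ran from 5.23e-07 to 0.0109. Of 8 genes of this list tested, 2 rose and 0 fell, the other being TIPARP, the receptor's feedback inhibitor (0.85, adjusted p = 0.0054, called in 2 of the 8 fits that left out 1 library, 0.0227 without Sal replicate 1). HMOX1, the heme oxygenase among 16 NRF2 targets, rose from 10.8 ± 2.90 to 32.6 ± 9.71 CPM (SD, n = 4), with an adjusted p of 0.00129. SLC7A5, a subunit of the large neutral amino acid transporter and the 1 gene called among 22 ATF4 targets, rose from 541 ± 111 to 1254 ± 86.6 CPM (SD, n = 4). Its call held in 6 of the 8 fits that left out 1 library (0.0112 without Sal replicate 2) and not with libraries 2 and 3 summed (adjusted p = 0.0219, where its 9 alternatives ran from 2.83e-06 to 0.0219). BMP7, a secreted ligand and the 1 gene called among 16 of the hedgehog and BMP list, had 13.4, 13.6, 13.0 and 11.4 CPM with Sal and 27.8, 23.9, 22.1 and 21.3 CPM with S + D. The BMP7 groups did not overlap, the log2 fold change was 0.89 ± 0.14 (SE, adjusted p = 0.000813), and it was called in all 9 alternatives.

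S100A7A, HLF, FMO6P and PLEKHS1 were also among the 10 largest falls. S100A7A, a calcium-binding protein of the S100 cluster on chromosome 1, had 6.32, 1.42, 1.21 and 0.908 CPM with Sal and 0.362, 0.126, 0.129 and 0.147 CPM with S + D, a log2 fold change of -3.70 (adjusted p = 0.0016). In both groups the unnumbered library stood above the others. HLF, a PAR bZIP factor controlled by the circadian clock, fell from 1.51 ± 0.373 to 0.159 ± 0.0812 CPM (SD, n = 4), the pseudogene FMO6P from 1.52 ± 0.229 to 0.126 ± 0.0720 CPM, and PLEKHS1 from 2.90 ± 1.31 to 0.354 ± 0.164 CPM.
The clock repressors CRY1, PER3 and PER1 and the matrix protein nephronectin (NPNT) were picked out after their values were seen. CRY1 had 38.2, 35.1, 33.7 and 31.9 CPM with Sal and 10.2, 7.32, 8.42 and 8.07 CPM with S + D, a log2 fold change of -2.03 ± 0.12 (SE, adjusted p = 5.8e-08). This was the smallest p of the comparison, and the groups were tight. PER3 fell from 9.59 ± 1.86 to 1.24 ± 0.370 CPM (SD, n = 4) and PER1 from 61.3 ± 13.5 to 20.2 ± 2.45 CPM. NPNT had 50.1, 53.1, 54.3 and 52.5 CPM with Sal and 13.3, 14.5, 15.7 and 14.9 CPM with S + D, so that both groups spread by only a few CPM.

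Most cell cycle genes had lower estimates with S + D, and few passed the test in the main model, which has no term for the replicate number. With a replicate block, which adds that term, more were called lower and 0 higher. These were 5 regulators of G1 and S phase, 5 DNA replication, 3 mitosis and 5 homologous recombination genes. Among 26 regulators of G1 and S phase tested, CCND1 was the 1 gene called lower and none was called higher by edgeR, while DESeq2 called 3 lower and 0 higher and 7 had a lower estimate at an unadjusted p under 0.05. Of 8 genes taken from those that the study discusses, the 6 besides CCND1 and EGR1 did not pass the test. CCNE2, the cyclin of late G1, was at -1.62 (adjusted p = 0.0144), E2F2 at -1.18 (0.0663), BIRC5, the survivin gene, at -0.71 (0.285) and MYC at 0.50 (0.0962). ESR2 was at -0.38 (0.47) and WNT3A at -1.22 (0.037). CCNE2 had 11.5, 3.94, 6.16 and 6.39 CPM with Sal and 2.89, 1.85, 2.14 and 2.24 CPM with S + D, without overlap, and was called in 6 of its 9 alternatives (adjusted p from 0.00035 to 0.0665) and in 0 of the 8 fits that left out 1 library. E2F2 was called in 1 of its 9 alternatives (adjusted p from 0.00818 to 0.141). For E2F2 and BIRC5 the unnumbered library was the highest of either group, with 41.3 and 42.6 CPM with Sal and 16.3 and 26.2 CPM with S + D. Of 34 DNA replication genes 2 fell, CDC45 of the replicative helicase (-1.42, adjusted p = 0.0014) and RFC3 of the clamp loader (-0.90, adjusted p = 0.0076), and the median was -0.29. Of the 34, 29 had a lower estimate, 12 of them at an unadjusted p under 0.05, and DESeq2 called 5 lower. RFC3 was called in 1 of the 8 fits that left out 1 library (0.0279 without SD replicate 2). Of 30 mitosis genes none was called by edgeR, 4 were called lower by DESeq2, and 11 had a lower estimate at an unadjusted p under 0.05, with 27 of the 30 estimates below 0 and a median of -0.54. BRCA1 was the 1 gene of 20 for homologous recombination called, at -0.91 (adjusted p = 0.00479), and in 3 of the 8 fits that left out 1 library (0.0204 without SD replicate 1). Of the 20, 18 had a lower estimate, 11 of them at an unadjusted p under 0.05, the median was -0.74, and DESeq2 called 5 lower.

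The response to Das was different in cells without Sal. The difference between S + D minus Sal and Das minus control, groups that share no library, was tested as an interaction in the model of the 16 libraries of 72 h. It was positive past both cutoffs for 231 genes (1.38%) and negative for 279 (1.67%), and at the adjusted p alone for 573 (3.43%) and 682 (4.09%). The numbered libraries gave 400 and 326 past both cutoffs, the summed libraries 133 and 118, and without Das replicate 3, which stood apart from its group, 498 were negative. The positive count without the unnumbered Sal library was 376, and the negative count without Das replicate 1 was 173. Das alone raised 448 genes (2.69%) and lowered 390 (2.34%) past both cutoffs. Of the 69 genes that rose with Das added to Sal, 24 (34.8%) also rose past both cutoffs with Das alone, which is 5.36% of the latter's genes, and of the 89 that fell, 35 (39.3%) also fell with Das alone, which is 8.97% of its genes. At the adjusted p alone, 5 of the 69 genes fell and 26 rose with Das alone, and 44 of the 89 fell and 0 rose. Across all genes, which are not independent replicates, the correlation of the fold changes with and without Sal was 0.30.

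Some gene groups moved with Das in cells without Sal and not, or in the opposite direction, in cells with Sal, as the plot of gene lists shows. The list of chemokines and cytokines, which also holds the NF-κB inhibitor NFKBIA, is the clearest case. Of 14 tested, 11 fell and 0 rose with Das alone (against 9.36% lower and 10.5% higher of all genes), while 0 fell and 4 rose when Das was added to Sal, and the difference itself was called positive for 9 and negative for 0. It stayed at 9 in the numbered libraries and without Das replicate 3, and was 8 with libraries 2 and 3 summed. TNF, the inflammatory cytokine, had 0.275, 0.691, 0.197 and 0.314 CPM with Sal and 1.28, 1.48, 1.26 and 1.21 CPM with S + D. All S + D libraries were above all Sal libraries, a log2 fold change of 1.83 (adjusted p = 0.00774, called in 1 of the 8 fits that left out 1 library, 0.032 without Sal replicate 2). With Das alone it was at 0.248 ± 0.193 CPM and in the control at 2.06 ± 0.376 CPM (SD, n = 4), and the difference was 4.81 (standard error 0.56, adjusted p = 6.33e-05). CXCL1, a neutrophil chemokine, was at 4.22 ± 0.945 CPM in the control, 0.309 ± 0.130 with Das, 0.220 ± 0.0961 with Sal and 0.738 ± 0.250 with S + D (SD, n = 4). The difference of its log2 responses was 5.42 (adjusted p = 7.01e-06). NFKBIA, the inhibitor of NF-κB that NF-κB itself raises, had 14.7, 17.3, 15.4 and 15.7 CPM with Sal and 26.7, 29.3, 25.7 and 25.3 CPM with S + D (log2 fold change 0.76, adjusted p = 0.00101). Its level was 53.5 ± 5.29 CPM in the control and 25.9 ± 4.17 CPM with Das alone (SD, n = 4). The gene is neither a chemokine nor a cytokine, and it is among the 11 falls, the 4 rises and the 9 differences. NFKBIA was called in all 8 fits that left out 1 library, and CXCL1 in 1 of them (0.0342 without Sal replicate 3). CXCL16 rose by 0.53 (adjusted p = 0.00426), in 2 of the 8 fits that left out 1 library (0.0183 without Sal replicate 3). With libraries 2 and 3 summed, none of the 4 rises was called by edgeR, with an adjusted p between 0.0105 for NFKBIA and 0.044 for TNF, while DESeq2 on all libraries called 5.

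The genes of sterol synthesis, which SREBP2 raises when cells lack cholesterol, went the other way. With Das alone 16 of 25 rose and 0 fell, when Das was added to Sal 3 fell and 0 rose, and the difference was negative for 13 and positive for 0. None of the 3 falls was called by edgeR with libraries 2 and 3 summed. The count of differences was 15 from the numbered libraries, 14 without Das replicate 3 and 10 with libraries 2 and 3 summed. TM7SF2, a sterol reductase, had 57.9, 66.9, 61.4 and 59.0 CPM with Sal and 39.2, 44.1, 37.7 and 39.2 CPM with S + D, and 29.4 ± 3.99 CPM in the control and 65.8 ± 11 CPM with Das alone (SD, n = 4). The libraries of Das and of Sal were all above those of the control, and those of S + D lay between the control and Sal. Its log2 fold change was -0.61 (adjusted p = 0.00697) and the difference -1.78 (standard error 0.18, adjusted p = 2.02e-05). TM7SF2 kept its call in 1 of the 8 fits that left out 1 library (0.0256 without Sal replicate 1). FASN, the fatty acid synthase and the 1 gene called among 9 for fatty acid synthesis, was at -0.95 (adjusted p = 0.00959), and in 2 of those fits (0.0369 without Sal replicate 1).

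**Figure D4:**
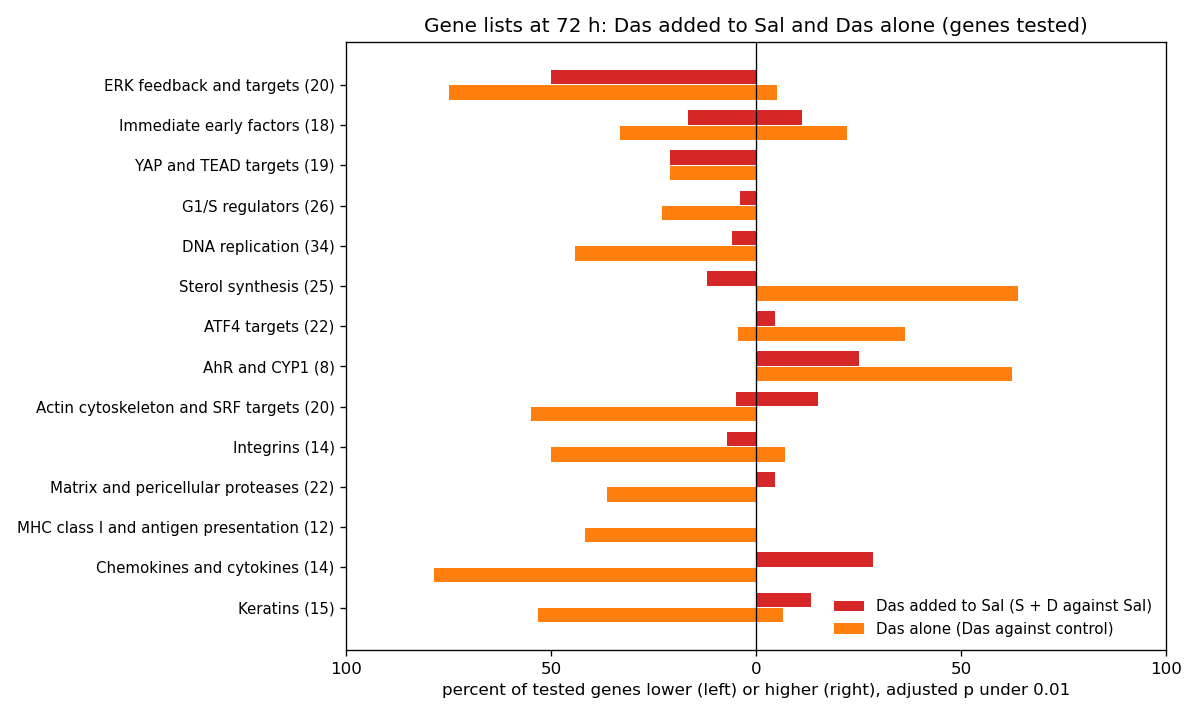
Percent of the tested genes of 14 lists called lower (bars to the left) or higher (bars to the right) at an adjusted p under 0.01, for Das added to Sal (red) and Das alone (orange) at 72 h, with the number of genes tested in parentheses. The ERK list is lower in both (10 and 15 of 20), while sterol synthesis (3 lower against 16 higher) and the chemokine list (4 higher against 11 lower, NFKBIA included) point to opposite sides.

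Actin and SRF target genes showed 11 falls and 0 rises of 20 with Das alone, and 3 rises and 1 fall when Das was added to Sal, with a positive difference for 7 and a negative one for 0 (10 from the numbered libraries, 4 with libraries 2 and 3 summed). With libraries 2 and 3 summed, edgeR called none of these genes for Das added to Sal, and DESeq2 on all libraries called 5 higher and 2 lower. ACTG1, cytoplasmic gamma-actin, had 1264, 893, 679 and 661 CPM with Sal and 1662, 1652, 1545 and 1589 CPM with S + D. The Sal libraries spread widely and the S + D libraries did not, and the groups did not overlap. ACTG1 was at 2777 ± 208 CPM in the control and 1783 ± 258 CPM with Das alone (SD, n = 4). Every S + D library was thus below every control library. Its log2 fold change was 0.88 (adjusted p = 0.00366, called in 3 of the 8 fits that left out 1 library, 0.0166 without Sal replicate 2) and the difference 1.52 (adjusted p = 0.000605). TPM2, a tropomyosin, rose by 0.76 (adjusted p = 0.00968) and the smooth muscle calponin CNN1 fell by 1.75 on the log2 scale (adjusted p = 0.00774), each in 1 of those 8 fits (0.037 without Sal replicate 3 and 0.0283 without Sal replicate 1). FLNA, filamin A, had an estimate of 0.39 (adjusted p = 0.189) and a difference of 1.18 (adjusted p = 0.00398).
Of 12 MHC class I and antigen presentation genes, 5 fell with Das alone and none was called when Das was added to Sal by edgeR, whereas DESeq2 called 3 higher and 6 had a higher estimate at an unadjusted p under 0.05. The difference was positive for 8, for 11 from the numbered libraries and for 2 with libraries 2 and 3 summed.

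Among 15 keratins, 8 fell and 1 rose with Das alone, 2 rose and 0 fell when Das was added to Sal, and the difference was positive for 6 and negative for 1, a count that was the same with libraries 2 and 3 summed. KRT80, a keratin of the cell periphery, had 92.6, 65.1, 58.7 and 57.5 CPM with Sal and 151, 132, 148 and 151 CPM with S + D, a log2 fold change of 1.09 (adjusted p = 0.000931). The basal keratin KRT5 had 79.3, 37.6, 28.9 and 27.6 CPM with Sal and 103, 109, 95.1 and 99.4 CPM with S + D. Its level was 530 ± 34.4 CPM in the control and 105 ± 35.9 CPM with Das alone (SD, n = 4). The unnumbered Sal library was close to the S + D group, and the call (1.23, adjusted p = 0.00969) held in 1 of the 8 fits that left out 1 library (0.0377 without Sal replicate 2). KRT14, its usual partner, had an estimate of -0.41 (adjusted p = 0.598).
The integrin ITGAV, the 1 gene of 14 integrins called, fell by 0.68 on the log2 scale (adjusted p = 0.0033) and did so in 6 of the 8 fits (0.0144 without Sal replicate 3). Of 22 matrix and protease genes, TIMP2, an inhibitor of metalloproteases, rose by 0.66 (adjusted p = 0.00968, in 1 of the 8 fits, 0.0312 without SD replicate 3). For the stem cell markers of breast tumors, PROM1 (CD133) was at -0.54 (adjusted p = 0.00878) and CD44 at 0.93 (adjusted p = 0.00354). Each was called in 2 of the 8 fits (0.0316 and 0.0148 without Sal replicate 2). CD44 rose from 193 ± 14.5 to 368 ± 24.9 CPM (SD, n = 4). It stayed below its level with Das alone (997 ± 319 CPM) and in the control (1769 ± 328 CPM). ESRP2, a splicing factor of epithelial cells, had 75.7, 95.7, 80.3 and 74.5 CPM with Sal and 51.7, 45.7, 55.3 and 54.4 CPM with S + D, a log2 fold change of -0.66 (adjusted p = 0.00128) that was called in all 9 alternatives.

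Smaller numbers of calls came from other lists. CTSL, the lysosomal protease cathepsin L, had 34.3, 33.7, 31.2 and 31.5 CPM with Sal and 45.2, 63.8, 52.7 and 53.5 CPM with S + D, and it and CTSA, another lysosomal enzyme, were the 2 genes that rose among 23 of the lysosome and autophagy list (0.72 and 0.48, adjusted p = 0.00149 and 0.00878). MT1E, a metal-binding metallothionein, had 13.2, 12.3, 15.2 and 14.7 CPM with Sal and 21.3, 31.6, 22.1 and 22.6 CPM with S + D. In CTSL and MT1E the groups did not overlap, and S + D replicate 1 was the highest library. The log2 fold change of MT1E was 0.81 (adjusted p = 0.00161), and it was called in all 9 alternatives. CLDN1, a tight junction claudin (0.80, adjusted p = 0.0054), STAT5A, a factor activated by cytokine receptors (0.75, adjusted p = 0.00625), and ISG20, an interferon-stimulated exonuclease (0.81, adjusted p = 0.00774), were called in 2, 2 and 0 of the 8 fits that left out 1 library (largest adjusted p 0.0223, 0.0278 and 0.0329). CTSA was called in 1 of them (0.0384 without Sal replicate 3). The receptor kinase TEK had between 0.311 and 0.475 CPM with Sal and 2 S + D libraries at 0, and was at least 4.35-fold lower against the limit of 3 counts. It was called in 1 of the 8 fits that left out 1 library (0.0298 without SD replicate 3) and not with libraries 2 and 3 summed (adjusted p = 0.0276, where its alternatives ran from 0.00208 to 0.0276).
None of the 29 Wnt, 14 Notch, 17 BCL2 family, 10 ABC transporter, 27 glycolysis and hypoxia, 19 ER chaperone and 7 CDK inhibitor genes was called by edgeR. In these lists 8, 7, 3, 0, 6, 1 and 1 genes had an unadjusted p under 0.05, and DESeq2 called 1, 1, 0, 0, 3, 0 and 0.

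Of the 20 ERK targets, 10 fell when Das was added to Sal, and 15 fell and 1 rose with Das alone. The difference was called positive for 7 and negative for 0 and did not pass the test for the other 13, or 5 with libraries 2 and 3 summed. In ETV5 the fall with Das alone was from 21.1 ± 0.833 to 0.365 ± 0.210 CPM (SD, n = 4), and the difference of the log2 responses was 2.17 (standard error 0.37, adjusted p = 0.00112). For SPRY4 the difference was 3.58 (adjusted p = 2.25e-05) and for ETV4 it was 3.75 (adjusted p = 1.62e-05). Their levels with Sal alone were 7.29 ± 0.626 CPM for ETV5, 5.78 ± 0.820 for SPRY4 and 6.75 ± 1.45 for ETV4 against 21.1 ± 0.833, 34.4 ± 2.06 and 46.4 ± 4.30 CPM. For EGR1 (-1.25, adjusted p = 0.44), ETV1 (-0.11, 0.889), SPRY2 (-0.18, 0.546), CCND1 (0.68, 0.0569) and CCN2 (-0.79, 0.186) the difference did not pass the test. The FYN responses were 1.40 with and 1.40 without Sal, and their difference was 0.00 (standard error 0.20, adjusted p = 0.999).

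**Figure D5:**
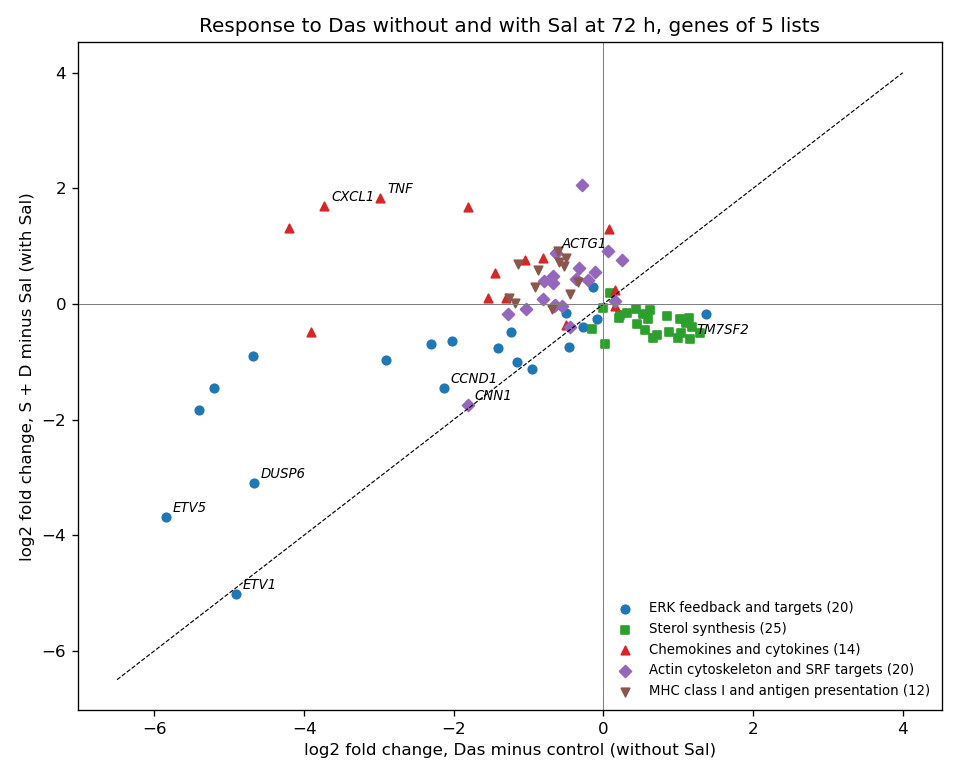
Log2 fold change of S + D minus Sal (with Sal) against that of Das minus control (without Sal) for the tested genes of 5 lists at 72 h, 1 point per gene, with a dashed line where both are equal. ERK genes lie mostly in the lower left and above the line, sterol genes in the lower right, and most chemokine, actin and MHC class I genes in the upper left.

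Of the 6 genes with the largest differences that averaged 1 CPM or more in a group of this comparison, TNC had a positive one, and the other 5 were near 0 in the control and higher with Sal. TNC, the matrix protein tenascin C, was at 12.1 ± 2.53 CPM in the control, 0.156 ± 0.0377 with Das, 1.08 ± 1.16 with Sal and 1.02 ± 0.256 with S + D (SD, n = 4), where the unnumbered Sal library with 2.82 CPM made up most of the Sal mean. The fold change of S + D against Sal was thus -0.14 (adjusted p = 0.891), or 1.12 (adjusted p = 0.0126) from the numbered libraries, where its 9 alternatives ran from 0.0126 to 0.977. The protein disulfide isomerase gene PDIA2 and the serine protease gene HTRA3 had 0 counts in every control library and 4.06 ± 0.553 and 10.6 ± 0.279 CPM with Sal, and their level with S + D was 4.09 ± 0.652 and 10.2 ± 2.44 CPM (SD, n = 4). MUC4, a membrane mucin, the sodium channel subunit SCN3B and LINC02475 were likewise near 0 in the control and at 45.7 ± 15.0, 9.63 ± 1.30 and 1.72 ± 0.573 CPM with Sal and 34.7 ± 7.89, 10.5 ± 1.65 and 1.01 ± 0.0994 CPM with S + D. Adding Das to Sal gave estimates between -0.76 and 0.12 for these 5 genes, with adjusted p between 0.139 and 0.992. Das alone put them at 0.922 ± 0.602, 0.530 ± 0.372, 3.08 ± 2.22, 1.63 ± 1.24 and 0.336 ± 0.131 CPM in the same order. Das replicate 3 was below the other Das libraries for PDIA2 (0.031 CPM), HTRA3 (0), MUC4 (0.031) and SCN3B (0.124), but not for LINC02475 (0.31).

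At 24 h, adding Das to Sal had raised 158 genes (0.966%) and lowered 175 (1.07%) past both cutoffs, and 954 (5.83%) and 1154 (7.06%) at the adjusted p alone, among 16357 genes. Of the 69 genes higher at 72 h, 22 (31.9%) were higher past both cutoffs at 24 h as well, which is 13.9% of the genes of 24 h, and of the 89 lower genes, 33 (37.1%) were lower, which is 18.9%. Of the 141 of these genes that were tested at 24 h, edgeR called 29 higher and 44 lower in the same direction and 0 in the opposite one at an adjusted p under 0.01. A difference between the time points was called past both cutoffs in the model of all 32 libraries for 46 genes with a positive (0.267%) and 26 with a negative difference (0.151%), among 17227 genes. The numbered libraries gave 192 and 105, and the summed ones 19 and 13. Leaving out 1 library gave between 25 (without Sal 72 h replicate 3) and 122 (without the unnumbered Sal library of 72 h) positive and between 15 (without SD 24 h replicate 2) and 46 negative. ETV5 had fallen by 3.13 on the log2 scale at 24 h, from 10.0 ± 0.746 to 1.14 ± 0.114 CPM (SD, n = 4), and EGR1 by 4.81, from 119 ± 22.7 to 4.20 ± 4.46 CPM. MAPK4 was higher by 5.29, from 1.18 ± 0.499 to 46.3 ± 15.8 CPM. For these 3 genes the difference between times did not pass the test. For SPRY2 it did: its estimate was -0.24 (adjusted p = 0.252) at 24 h and -1.13 at 72 h, a difference of -0.85 (adjusted p = 0.00944).

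The 6 genes with the largest difference between times, of those past both cutoffs on it and averaging 1 CPM or more in a 72 h group, had lower estimates with added Das at 24 h than at 72 h. Below that level, RXFP1 had a difference of -3.71 (adjusted p = 0.0058), a gene picked after its values were seen. IVL, the envelope protein involucrin of keratinocytes, fell from 4.44 ± 1.42 to 0.443 ± 0.0497 CPM at 24 h and was at 2.89 ± 0.895 and 4.80 ± 0.569 CPM at 72 h (SD, n = 4), a difference of 4.07 (adjusted p = 5.15e-09). OLFML3, a secreted olfactomedin-like protein, fell from 54.4 ± 8.72 to 14.8 ± 4.11 CPM at 24 h and was higher at 72 h, with 10.7 ± 2.62 and 19.6 ± 1.71 CPM (SD, n = 4), a difference of 2.78 (adjusted p = 4.92e-08). The rise of OLFML3 at 72 h was called in 2 of the 8 fits that left out 1 library (0.0259 without Sal replicate 2). TNC, the intermediate filament gene NES and CTNNAL1 fell at 24 h by 3.25, 2.60 and 2.02 on the log2 scale, and their differences between times were 3.14, 3.44 and 2.75. GRIN2A, a subunit of the NMDA receptor, had an estimate of -1.60 (adjusted p = 0.0485) at 24 h and a log2 fold change of 1.96 (adjusted p = 0.00704) at 72 h, a difference of 3.60 (adjusted p = 0.00374). Its rise at 72 h was called in 2 of the 8 fits (0.025 without SD replicate 2). The actin gene ACTG1 fell by 0.57 on the log2 scale at 24 h and rose by 0.88 at 72 h, with a difference of 1.5 (adjusted p = 2.47e-05). Of the 34 DNA replication genes tested at both times, 27 fell at 24 h and 2 at 72 h, and of 30 mitosis genes 22 and 0. Of all genes, 7.06% were called lower at 24 h and 1.59% at 72 h. At 72 h, 29 of the 34 and 27 of the 30 estimates were below 0. No count of differences between times was made for these lists, so a change of their response with time was not tested.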

How the data were processed

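The authors made TruSeq libraries, read them from one end, converted the reads with bcl2fastq 2.19 and aligned them to GRCh37 with STAR 2.5.2. They deposited unnormalized counts, whole numbers for 48804 Ensembl genes in 32 libraries. The submitters' processing notes also name Cufflinks 2.1.1 and DESeq2, whose output was not used. The counting program, its annotation and its use of strand are not given in the sources used here, so reads that genes share or that come from antisense genes could not be told apart. The annotation named 46537 of the genes. Mitochondrially encoded genes were not analysed here.

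Groups came from the labels. In R 4.3.3, the 16 libraries of 72 h were fitted with edgeR 4.0.16 (TMM, filterByExpr with a minimum count of 10, quasi-likelihood test, Benjamini-Hochberg adjustment over all genes tested), which left 16682 genes. A single named gene, and a gene of a list, was called at an adjusted p under 0.01. The 32 libraries were fitted together, over 17227 genes, to compare time points. Each standard error was computed from the test statistic. The fits were tested on simulated data. Totals of 27812240 to 40234975 counts at 72 h set the precision, and about 10 counts correspond to well under 1 CPM.

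Named genes were the 10 largest rises and 10 largest falls with a symbol, past both cutoffs, at a mean of at least 1 CPM in either group and with every S + D library beyond every Sal library, up to 4 called genes for each of 42 lists with up to 2 others, the 6 genes with the largest interaction and the 6 with the largest difference from 24 h (past both cutoffs on it, at a mean of at least 1 CPM in either 72 h group), and 8 of the genes that the study discusses. Genes outside this rule are named as such, and results of some genes are not reported here. The members and lists were chosen with earlier results of these data known. The labels number 3 libraries per group and leave 1 unnumbered. Alternatives were RLE factors (DESeq2 1.42.0), no filter on low counts, a replicate block, a term for the unnumbered libraries, the numbered libraries only, DESeq2's own test, only the 8 libraries, all 32 libraries, other cutoffs, each library left out, and, chosen after seeing the data, libraries 2 and 3 summed. Promoter sequences were taken from RefSeq (GRCh38.p14), which had an entry for 109 of the 158 genes past both cutoffs.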

Additional observations from a re-analysis of the deposited data

Results flagged for a closer look

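In 156 groups of 4 libraries, all of Sal or S + D at 72 h, 18 single libraries lay further from the rest of their group than Dixon's 95% limit. Chance alone flags about 1 group in 20. Groups of control and Das libraries were not among those screened. The unnumbered library was the distant one in 12 of the 18. Among Sal libraries it was high for BIRC5 (42.6 CPM against 14.9 to 18.8 in the others), DDIT4L (2.5 against 0.384 to 0.655), HMOX1 (15.1 against 9.04 to 9.89), S100A7A (6.32 against 0.908 to 1.42) and TNC (2.82 against 0.454 to 0.524), and low for FOS (16.5 against 36.4 to 36.8). Among S + D libraries it was high for BIRC5 (26.2 CPM), CDC45 (10.4), DDIT4L (9.07), PDIA2 (5.06) and S100A7A (0.362), and low for PSG8 (1.17). Sal replicate 1 was high for AMOTL2 (224 CPM) and STAT5A (5.43) and low for FMO6P (1.18). The S + D replicate 1 library was low for CA12 (3.23 CPM) and ITGAV (111), and high for MT1E (31.6).

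The log2 response to Das differed between cells with and without Sal, by the interaction test, for several named genes. It was more positive with Sal for TNC (6.10), IVL (4.36), GRIN2A (3.85), NES (3.68), PAPPA (2.67), TUBB4A (2.66), CA12 (2.18), ETV5 (2.17), OLFML3 (1.69) and MYC (1.65). It was more negative with Sal for SMOC1 (-1.79), FMO6P (-2.10), SCN3B (-5.54), LINC02475 (-5.75), MUC4 (-5.92), HTRA3 (-7.24) and PDIA2 (-7.97). For PDIA2 and HTRA3 every control library had 0 counts, so these fitted values depend on the prior count and are no bound.

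Between 72 h and 24 h, the log2 response to added Das was tested to differ for IVL (4.07), GRIN2A (3.60), NES (3.44), TNC (3.14), OLFML3 (2.78), CTNNAL1 (2.75) and SMOC1 (-2.49).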

How the results depend on the processing

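None of the 65 named genes that were called changed sign under the alternatives or when 1 library was left out. For 3 named genes that were not called, the estimate did: TNC, reported at -0.14, was at 0.06 with a replicate block, 0.06 with a term for the unnumbered libraries, 1.12 in the numbered libraries, and between -0.39 and 1.02 (without the unnumbered Sal library) when 1 library was left out. HTRA3 (-0.06) was at 0.08 and PDIA2 (0.01) at -0.05 in the numbered libraries, and leaving out 1 library gave -0.18 to 0.11 and -0.09 to 0.07. The block also called CCNE2 (adjusted p = 0.00578) and E2F2 (0.00818). For Das added to Sal at 72 h, 69 genes were higher and 89 lower past both cutoffs, and the higher count moved to 109 with a replicate block, 120 with a term for the unnumbered libraries, 222 with a fold change cutoff of 1.5 and 126 at an adjusted p under 0.05. The lower count moved to 243 with the fold change cutoff. With libraries 2 and 3 summed, an alternative chosen after seeing the data, the counts were 28 and 54. At the adjusted p alone (237 and 265) they were 594 and 633 with the block, 701 and 702 with the term, 551 and 561 with DESeq2, 460 and 496 with all 32 libraries, 672 and 707 at an adjusted p under 0.05 and 70 and 92 with libraries 2 and 3 summed, and 397 were higher in the numbered libraries. Leaving out 1 library gave 44 to 99 and 63 to 80 past both cutoffs, and 113 to 282 and 147 to 260 at the adjusted p alone.

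The difference from the Das response without Sal (231 and 279) moved to 358 positive with the block, 355 with the term and 400 in the numbered libraries, to 567 and 680 with the fold change cutoff, 357 and 466 at an adjusted p under 0.05 and 133 and 118 with libraries 2 and 3 summed, and to 167 to 376 and 173 to 498 when 1 library was left out. The difference between 72 h and 24 h (46 and 26) moved to 97 and 70 with the block, 100 and 72 with the term, 192 and 105 in the numbered libraries, 75 and 47 with DESeq2, 159 and 94 with the fold change cutoff, 93 and 75 at an adjusted p under 0.05 and 19 and 13 with libraries 2 and 3 summed, and to 25 to 122 and 15 to 46 when 1 library was left out. The causes of these moves were not tested, apart from the looser cutoffs.

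The replicate numbers were not taken to pair the samples. Same-numbered Sal and S + D libraries correlated at 0.62 for the unnumbered pair and at -0.04 to 0.27 for numbers 1 to 3. With the block, all 69 and 89 genes of the main counts were still called. Of the 80 genes that the naming rule chose, 65 were called, 23 in all 9 alternatives and 33 in all 8 fits that left out 1 library. Genes under 1 CPM rest on few reads, which limits their precision.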
